A study of Mus musculus with 15 samples.

Results

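Transcripts of the nuclear-coded genes for oxidative phosphorylation were followed in NIH3T3 cells after a single unfolded protein was created in them. The genes were taken by name from the tables: every gene whose symbol began with Nduf and one of the letters a, b, c, s or v and a digit (complex I), was Sdha to Sdhd (complex II), began with Uqcr (complex III), began with Cox4 to Cox8 followed by an isoform letter (complex IV), or began with Atp5 (complex V). Of 20207 genes, 84 matched, and by name they divided into 37 genes of complex I, 4 of complex II, 7 of complex III, 18 of complex IV and 18 of complex V. The name alone decided the complex, so a gene may be counted that is not a structural subunit of it. NIH3T3 is a mouse embryonic fibroblast line. All cells stably expressed DD-sfGFP, a fusion of superfolder GFP with an FKBP-derived destabilizing domain (DD), and had been sorted for high expression of it. The DD is folded while the ligand Shield-1 (S1) is bound, and S1 was withdrawn by adding purified FKBP protein to the medium. The 5 control samples kept S1, and cells were harvested 45 min (3 samples), 135 min (3 samples) and 405 min (4 samples) after S1 withdrawal.

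Oxidative phosphorylation takes place in the inner mitochondrial membrane. Complexes I and II pass electrons from NADH and succinate to ubiquinone, complex III passes them on to cytochrome c, and complex IV reduces oxygen. Complexes I, III and IV pump protons, and complex V, the ATP synthase, lets them flow back to make ATP. Most subunits are coded in the nucleus and imported, while a small core is coded in mitochondrial DNA. Transcripts of that mitochondrial core are not analysed here.

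The promoters of Cox7a2l and Ndufb4 are printed because these were the members that passed the test at 405 min both with and without a term for the library sets described below. Cox7a2l (chromosome 17, 83901257 to 83913673 in mm9) codes for a factor that joins complexes III and IV into a supercomplex, and Ndufb4 (chromosome 16, 37647688 to 37654454 in mm9) codes for an accessory subunit of complex I. Each line gives the 250 bases before the RefSeq start site on the strand of the gene, at chr17:83514334-83514583 for Cox7a2l and at chr16:37654369-37654618 for Ndufb4, both on the minus strand of GRCm38.p6, which is another build than that of the expression tables. Capitals mark matches, on either strand, to GCGCA followed by any base and GCGC, the core of the site bound by nuclear respiratory factor NRF1, or to the GC box GGGCGG.
Cox7a2l: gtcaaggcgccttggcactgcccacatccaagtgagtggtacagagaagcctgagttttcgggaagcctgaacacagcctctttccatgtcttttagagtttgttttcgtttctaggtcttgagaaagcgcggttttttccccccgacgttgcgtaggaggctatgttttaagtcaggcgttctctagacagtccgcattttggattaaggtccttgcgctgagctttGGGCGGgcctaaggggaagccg
Ndufb4: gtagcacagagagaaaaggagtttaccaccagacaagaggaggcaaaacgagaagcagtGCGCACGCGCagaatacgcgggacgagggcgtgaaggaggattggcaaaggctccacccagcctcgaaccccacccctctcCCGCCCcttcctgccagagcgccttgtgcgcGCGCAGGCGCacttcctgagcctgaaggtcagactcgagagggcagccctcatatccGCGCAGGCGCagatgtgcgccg
The Ndufb4 window held 3 NRF1 matches and 1 GC box, and the Cox7a2l window held 1 GC box and 0 NRF1 matches. RefSeq promoters were found for 68 of the 84 genes, 74 windows in all. The NRF1 letters were in 18.9% of these windows and in 3.74% of all 32851 promoter windows. CCGGAAG, a core bound by ETS factors such as GABP, was in 16.2% against 6.91%, AAGATGGC, bound by YY1, in 2.7% against 1.56%, and the GC box in 33.8% against 32.7%. A match of letters is a description of the window and not a binding site.

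Totals per sample ranged from 6652539 counts (control replicate 3) to 30258404 counts (45 min, replicate 1). No label assigns the samples to batches. They were split here, from the data, into 2 library sets by how strongly read abundance depended on the GC content of a gene's exons. Set 2 held 5 samples, namely control replicate 2, 45 min replicate 3 and 405 min replicates 1, 2 and 4, and set 1 held the other 10. The 135-min samples were all in set 1, and only replicate 3 of the 405-min samples was. The slope of log2 CPM, the counts of a gene scaled for depth, per 10 points of GC was -1.425 to -0.675 in set 1 and -0.387 to 0.031 in set 2. For this slope CPM was scaled to the sample total. All other CPM printed were scaled to the sum over the tested genes, adjusted between samples by TMM factors. The sets meet at the largest gap between neighbouring slopes (-0.675 to -0.387), and a gap of nearly that size lay inside set 1, between control replicate 3 (-1.425) and control replicate 4 (-1.148). The study's methods name a pair of library preparation routes without saying which sample went through which. Of 12 fibroblast markers, 11 reached 1 CPM in every sample, while 0 of 7 epithelial and 0 of 6 haematopoietic markers did, and of 8 muscle markers 1 did (Tnnt2). Fibroblast markers, summed, ranged from 15900 to 19000 CPM in control and from 12300 to 17100 CPM at 405 min, when 6 of the 12 fell (13.4% of all genes fell in that test). Their part in the results below was not tested.

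In control cells the subunit transcripts differed widely in abundance. The RPKM scale divides by gene length but does not remove the dependence on GC described above, so ranks between genes are approximate. On that scale Cox6c, a structural subunit of complex IV, was highest at 828 RPKM ± 421 (SD, n = 5). Uqcrh, the hinge protein of complex III, followed at 479 RPKM ± 126 (SD, n = 5), and Ndufa4 came next at 379 RPKM ± 85.6 (SD, n = 5). Uqcrh and Ndufa4 differed by less than the SD of Uqcrh, and Cox6c and Uqcrh by less than the SD of Cox6c. These SDs are between samples and do not measure differences within a sample. Within samples both orders turned in control replicate 3 (Cox6c 339.1, Uqcrh 342.0 and Ndufa4 406.4 RPKM) and held in the other controls. Ndufa4 was grouped here with complex I by its name and is now known to bind complex IV. Atp5b, the catalytic beta subunit of the ATP synthase, stood at 307 RPKM ± 106 (SD, n = 5), and Atp5a1, the alpha subunit, at 156 RPKM ± 31.0 (SD, n = 5). In CPM they stood at 1250 ± 134 and 861 ± 118 (SD, n = 5 each). For Atp5a1 control replicate 3 was the lowest control in RPKM (103.5) and the highest in CPM (1023). The SDs of RPKM therefore also carry a difference in scaling between samples. At the other end Cox7a1 was at 0 in all control samples.

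Among the isoforms of complex IV, the ubiquitous forms were abundant and the tissue-restricted forms were near 0. Mammals carry separate genes for several of its subunits, with heart and skeletal muscle using Cox6a2, Cox7a1 and Cox8b, lung using Cox4i2, and testis using Cox6b2. In control cells the ubiquitous forms stood at 299 CPM ± 70.8 for Cox4i1, 401 CPM ± 109 for Cox6a1, 288 CPM ± 78.1 for Cox6b1, 220 CPM ± 33.1 for Cox7a2 and 209 CPM ± 70.6 for Cox8a (SD, n = 5 each). No sample exceeded 0.643 CPM for Cox6a2, 0.643 CPM for Cox7a1, 0.165 CPM for Cox8b, 0.575 CPM for Cox4i2, 0.204 CPM for Cox6b2 or 0.386 CPM for Cox8c. Ndufa4l2, the relative of Ndufa4, peaked at 0.219 CPM against 301 to 813 CPM for Ndufa4 in set 1. No time point raised any of these silent isoforms above 1.29 CPM, the highest value of Cox7b2, which was reached in a control sample.

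**Figure D1:**
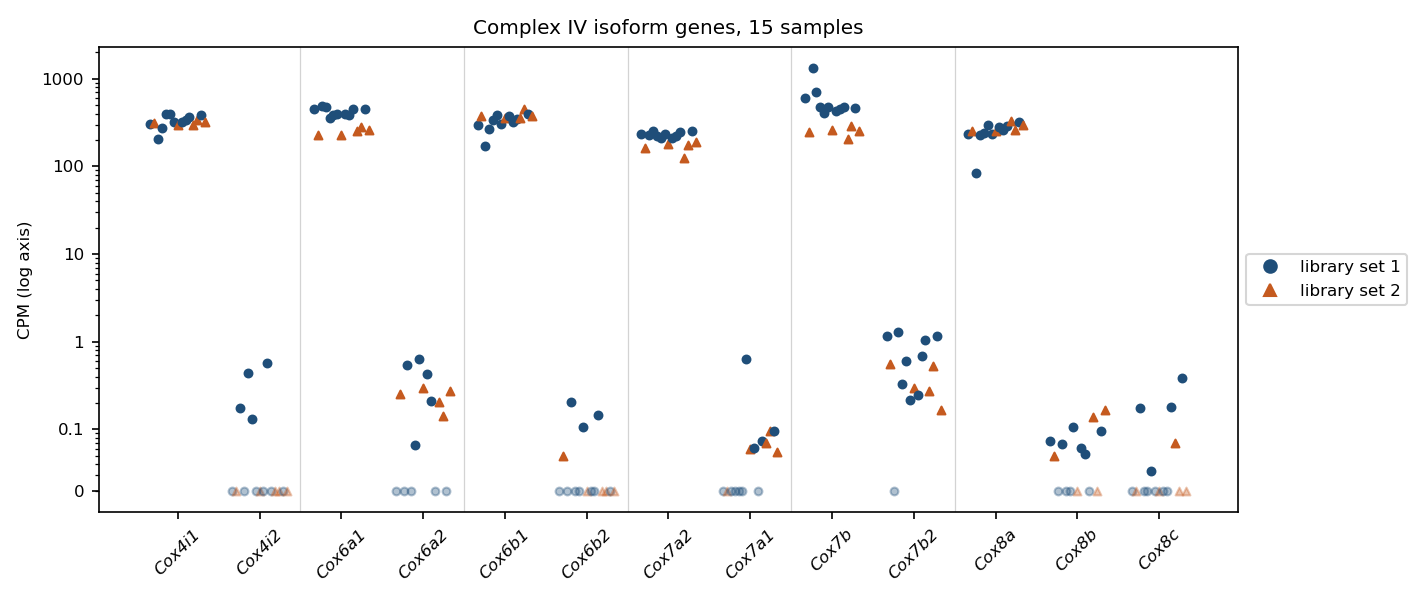
CPM (log axis, 0 drawn at the bottom) of complex IV isoform genes in the 15 samples, in sample order from control to 405 min within each gene, with circles for library set 1 and triangles for set 2. Ubiquitous isoforms lay near or above 100 CPM while the tissue-restricted isoforms stayed at or below 1.29 CPM in all samples.

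Of the 84 genes, 73 had at least 1 count in every sample and were among the 10276 genes tested. The 11 untested genes were the 7 low complex IV isoforms Cox4i2, Cox6a2, Cox6b2, Cox7a1, Cox7b2, Cox8b and Cox8c, together with Ndufa4l2, Ndufs5, Atp5g1 and Atp5j. Atp5g1, which codes for the ring-forming c subunit of the ATP synthase, was lost to a 0 in control replicate 3 alone and ranged from 8.22 to 26.3 CPM in the other samples. Atp5j, a subunit of the stalk that holds the ATP synthase together, was likewise at 0 in control replicate 3, at 48.7 to 79.7 CPM in set 2 and at 5.57 to 30.7 CPM in the rest of set 1. Ndufs5 codes for an accessory subunit of complex I that mitochondria normally carry, yet it was listed at 0 to 1.80 CPM. Many of these subunit genes have processed copies in the genome, and how reads shared with such copies were counted is not given in the sources used here.

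The first comparison asked which transcripts change 45 min after the unfolded DD appears. At this time 0 of the 73 tested members passed an adjusted p of 0.05 in edgeR's quasi-likelihood test, where 0.0% of all genes did. At an unadjusted p under 0.05 there were 2 members, Ndufa1 and Ndufc2 (both accessory subunits of complex I), and 365 genes in all. DESeq2 also called 0 members, and 0.0584% of all genes. The median log2 fold change was 0.03 over the members and 0.02 over all genes tested.

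At 135 min 0 of 73 members passed, against 1.46% of all genes, and 0 members had an unadjusted p under 0.05, compared with 1226 genes in all. DESeq2 called 0 members and 4.18% of all genes. The median log2 fold change was -0.05 for the members and -0.06 for all genes. Cox7a2l came closest (log2 fold change 0.40 ± 0.19 SE, adjusted p = 0.421). With the library set as a further term in the model, 7.93% of all genes passed at 135 min and so did 3 members. They were Cox7a2l, which rose (0.50 ± 0.13 SE, adjusted p = 0.0314), Ndufa6, which fell (-0.76 ± 0.22 SE, adjusted p = 0.0455), and Atp5l2, which fell (-1.81 ± 0.44 SE, adjusted p = 0.0200). None of these 3 was called at 135 min by the model without the term. Control replicate 3 held the highest value of both Ndufa6 and Atp5l2.

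By 405 min 2 members had risen and 9 had fallen, 15.1% of those tested, and 23.4% of all genes passed the same test (9.99% up and 13.4% down). The difference between these shares was not tested, and its direction turned when single samples were left out. The median log2 fold change was 0.01 over the members and 0.00 over all genes. There were 37 members above 0 and 36 below. Of 35 tested genes in complex I, 6 fell and 0 rose, beside the 13.4% of all genes that fell. With the library set in the model 1 of the 35 fell. Differences between complexes were not tested. The counts that follow are again without the library set. In complex IV 1 of 11 rose and 1 fell, in complex V 1 of 16 rose and 2 fell, and in complexes II (4 tested) and III (7 tested) none passed. In direct comparison of 405 with 135 min 0 members passed, 12 had an unadjusted p under 0.05, and 5.06% of all genes passed. DESeq2 called 2 members in that comparison, Atp5l and Cox7a2l, and 14.6% of all genes, and a fit on these time points only called 11 up and 5 down (21.9% of members) and 28.9% of all genes. For 405 min against control DESeq2 called 3 members up, Ndufa10 among them, and 12 down (20.5% of members and 33.2% of all genes). Single samples weighed on the 405-min counts. Without control replicate 2 there were 17 members up and 22 down (53.4% of members and 48.4% of all genes), and without 405 min replicate 3 there were 6 and 21 (37.0% and 34.7%). Without 405 min replicate 1, 2 or 4, or without control replicate 4, the calls were Cox7a2l up and Ndufb4 down each time, or 2.74% of members, against 9.43%, 11.0%, 9.33% and 13.5% of all genes. Leaving out control replicate 1 gave 2 up and 3 down (14.3% of all genes), control replicate 3 gave 2 and 2 (19.7%) and control replicate 5 gave 1 and 8 (18.8%). A fit on the compared groups only also called 1 up and 1 down (7.94% of all genes).

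**Figure D2:**
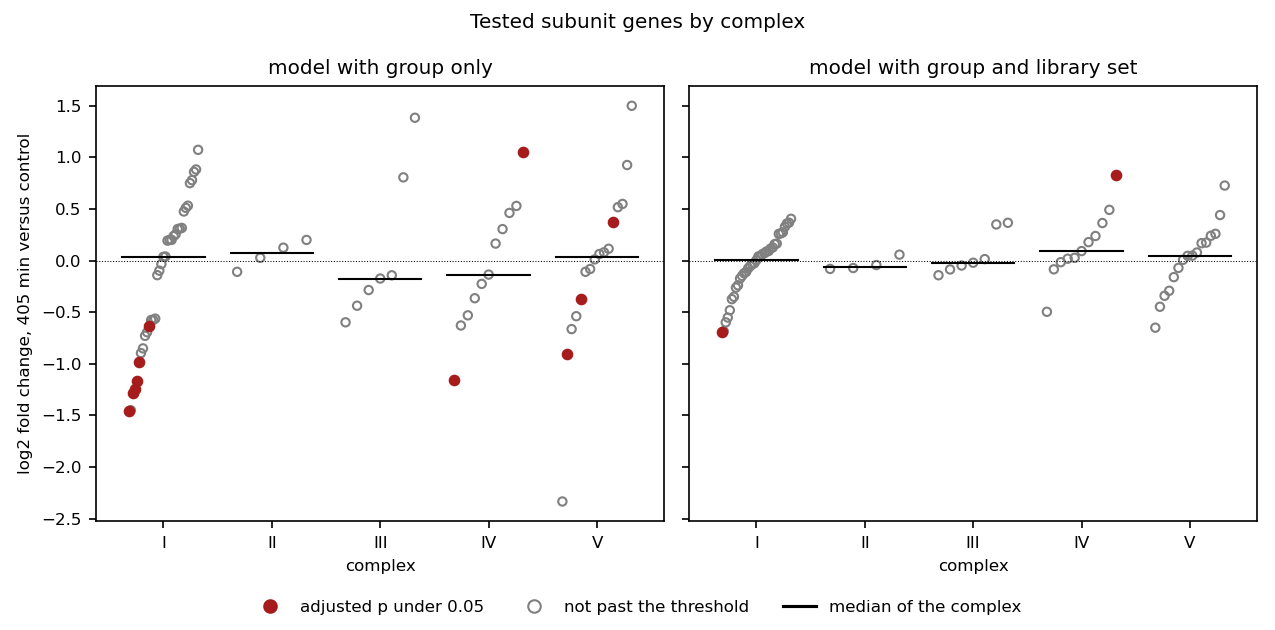
Log2 fold change at 405 min versus control for the 73 tested genes, one point each, by complex, in the model with group only (left) and with library set added (right). Filled points passed an adjusted p of 0.05 and lines mark the median of each complex. With the set term the spread narrowed and 2 filled points were left, Ndufb4 in complex I and Cox7a2l in complex IV.

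Cox7a2l had the lowest adjusted p of the members at 405 min. Control samples had 48.5, 72.2, 41.8, 48.4 and 58.8 CPM, the 45-min samples 64.9, 53.8 and 85.2, the 135-min samples 81.3, 66.0 and 66.7, and the 405-min samples 112, 114, 98.2 and 124 CPM. All 405-min samples lay above all controls. The log2 fold change at 405 min was 1.05 ± 0.17 (SE, adjusted p = 0.00124), and with the library set in the model it was 0.83 ± 0.14 (SE, adjusted p = 0.000696). The latter model called 1 member up and 1 down, with 13.0% of all genes. Within set 1 the single 405-min sample, assumed to vary like the other groups, exceeded the 4 controls (0.98 ± 0.21 SE, adjusted p = 0.0451, 2.11% of all genes called), and within set 2 the 3 samples exceeded the single control (0.71 ± 0.21 SE, adjusted p = 0.0794, 4.43% of all genes called). The closest relative, Cox7a2, which codes for the ordinary liver-type subunit of complex IV, had a log2 fold change of -0.23 ± 0.18 (SE, adjusted p = 0.345). That value turned to 0.03 with the library set in the model.

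Atp5o, the subunit that ties the catalytic head of the ATP synthase to its outer stalk, was the other member called higher. Controls had 115, 140, 87.5, 108 and 111 CPM and the 405-min samples 154, 146, 131.5 and 150 CPM. The highest control, replicate 2 of set 2, lay above the lowest 405-min sample, replicate 3 of set 1. Its log2 fold change was 0.37 ± 0.13 (SE, adjusted p = 0.0470), and with the library set in the model 0.24 ± 0.11 (SE, adjusted p = 0.175), so the call was lost. Overlap was examined on TMM-scaled CPM only. On that scale control samples of Cox8a, Ndufa10 and Atp5d also lay wholly below the 405-min samples. None of these 3 passed the edgeR test (adjusted p = 0.1055, 0.0506 and 0.0769). With Cox7a2l they make 4 of 73 members without overlap (5.48%), next to 6.75% of all genes, and 0 members lay wholly below control, next to 6.43%.

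Ndufb4 was the fall that held up best. Controls had 95.2, 43.7, 137, 90.1 and 70.5 CPM, the 45-min samples 75.4, 69.4 and 48.9, the 135-min samples 60.8, 63.8 and 73.0, and the 405-min samples 27.0, 37.3, 52.6 and 38.6 CPM. The groups overlapped at control replicate 2 alone, and inside each library set every 405-min sample lay below every control. The log2 fold change was -1.16 ± 0.28 (SE, adjusted p = 0.0110), and with the library set it was -0.69 ± 0.21 (SE, adjusted p = 0.0395). Within set 1 it was -0.90 ± 0.31 (SE, adjusted p = 0.175) and within set 2 -0.34 ± 0.24 (SE, adjusted p = 0.514).

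The remaining falls in complex I were in accessory subunits and in 1 core subunit. Ndufc2, an accessory subunit, had 156, 52.1, 449, 158 and 114 CPM in control and 55.4, 56.6, 109 and 50.2 CPM at 405 min (log2 fold change -1.45 ± 0.46 SE, adjusted p = 0.0367). Ndufa6, another accessory subunit, had 144, 57.5, 278, 161 and 141 CPM in control and 38.9, 47.4, 117 and 54.3 CPM at 405 min (-1.28 ± 0.39 SE, adjusted p = 0.0301). Ndufb2 of the membrane arm had 88.2, 43.9, 231, 121 and 74.9 CPM in control and 37.1, 44.1, 70.5 and 36.3 CPM at 405 min (-1.25 ± 0.40 SE, adjusted p = 0.0360). In all 3 genes control replicate 3 was the highest and control replicate 2 the lowest of the controls, and 405-min replicate 3 was the highest at its time. Ndufs1, which carries iron-sulfur clusters on the electron path from NADH, had 185, 91.1, 281, 237 and 166 CPM in control and 80.6, 97.4, 129 and 81.3 CPM at 405 min (-0.98 ± 0.27 SE, adjusted p = 0.0202). Ndufb3, an accessory subunit, fell as well (-0.64 ± 0.21 SE, adjusted p = 0.0388). It was chosen after its values were seen, to complete the count.

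Outside complex I, Cox7b, a small structural subunit of complex IV, had 602, 246, 1325, 712 and 481 CPM in control and 207, 290, 461 and 251 CPM at 405 min (log2 fold change -1.15 ± 0.38 SE, adjusted p = 0.0387). In complex V, Atp5f1, the b subunit of the outer stalk, changed by -0.90 ± 0.26 (SE, adjusted p = 0.0249) and the catalytic alpha subunit Atp5a1 by -0.37 ± 0.12 (SE, adjusted p = 0.0384), both named after their values were seen. Its partner in the catalytic head, Atp5b, had a log2 fold change of 0.06 ± 0.12 (SE, adjusted p = 0.69). Of the tested c-subunit genes of the ATP synthase, Atp5g2 had a log2 fold change at 405 min of 0.55 ± 0.26 (SE, adjusted p = 0.122) and Atp5g3 of -0.08 ± 0.14 (SE, adjusted p = 0.659). Apart from Ndufb4, none of the 9 falls passed with the library set in the model, where their adjusted p lay between 0.0865 and 0.278. Leaving out control replicate 3 as well as including the library set gave 3 members up (Cox7a2l, Cox8a and Ndufa10) and 3 down (Ndufb4, Ndufa6 and Atp5f1), against 22.6% of all genes.

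**Figure D3:**
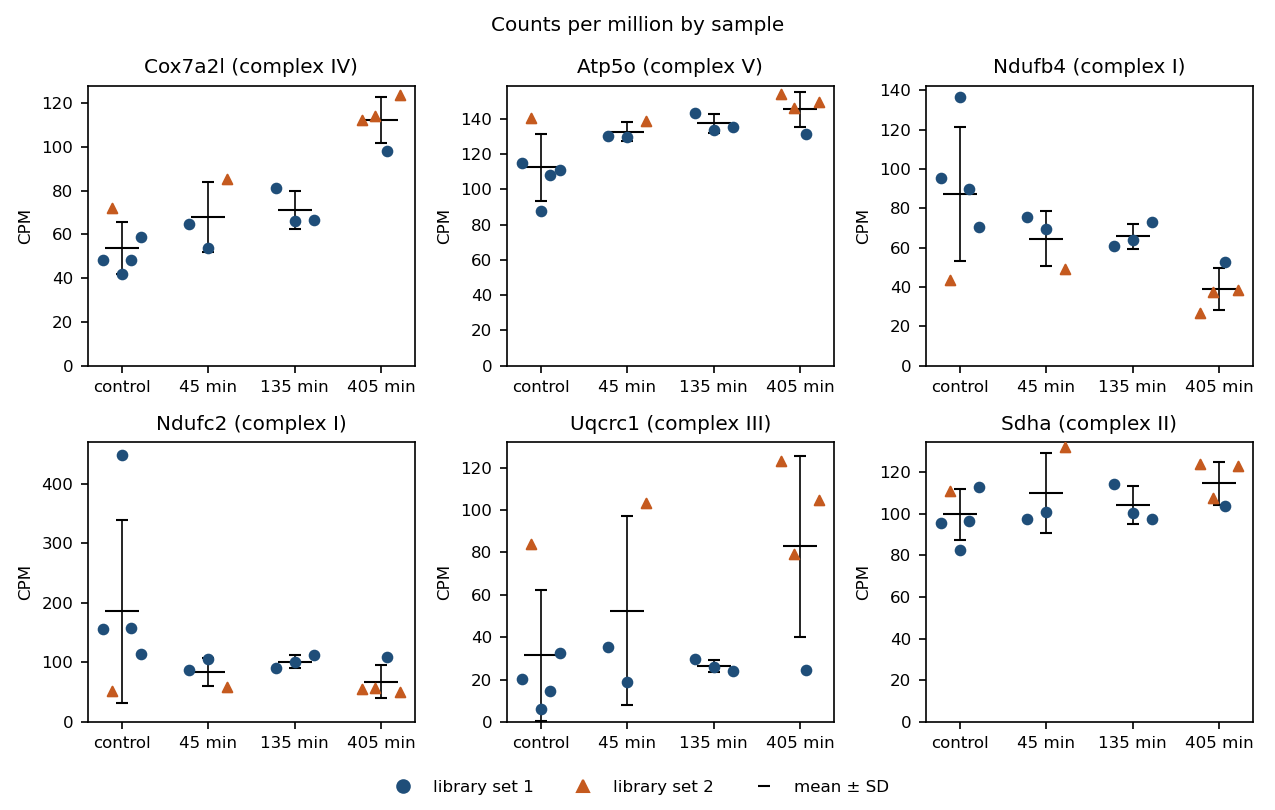
CPM (linear axes from 0) of 6 genes in each sample by time after S1 withdrawal, with circles for library set 1, triangles for set 2, and bars for the group mean ± SD. Cox7a2l at 405 min (98.2 to 124 CPM) lay above all controls, whereas Uqcrc1 at 405 min was at 24.5 CPM in replicate 3, of set 1, and at 79.1 to 123 CPM in the others, of set 2.

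Library set and time point overlapped in part, since set 2 held 3 of 4 samples at 405 min and 1 of 5 controls. Between the sets, with time in the model, 7 of 73 members were at least 2-fold higher and 12 at least 2-fold lower in set 2, which is 26.0% of members and, for all genes, 17.5%. Uqcrc1, a core protein of complex III, differed by 2.05 on the log2 scale and Ndufv1, the subunit of complex I that accepts electrons from NADH, by 1.76. Ndufc1 and Ndufa5, accessory subunits of complex I, differed by -2.07 and -1.45. Uqcrc1 had 84.0 CPM in control replicate 2 and 6.10 to 32.4 CPM in the other controls, and at 405 min it had 24.5 CPM in replicate 3 and 79.1 to 123 CPM in the others. Its log2 fold change at 405 min was 1.39 ± 0.64 (SE, adjusted p = 0.114), and that of Ndufv1 was 1.07 ± 0.50 (SE, adjusted p = 0.12). Uqcrh, lowest in complex III at -0.60 ± 0.28 (SE, adjusted p = 0.12), differed by -0.97 between the sets. All 9 members called down at 405 min were lower in set 2 (log2 difference -1.26 to -0.13), and both members called up were higher. Over the 73 members the 405-min fold change and the set difference had a Spearman rho of 0.94 and a Pearson r of 0.93. Both quantities come from the same libraries, the 405-min group is mostly set 2 and the controls mostly set 1, and genes are not independent replicates. These coefficients are therefore partly built in and are given as a description only. With the library set in the model, the median absolute log2 fold change of the members at 405 min went from 0.51 to 0.16, and the number of members past a 2-fold difference from 11 to 0. Time and library set cannot be told apart in full.

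The widest pair of differences was in Atp5l and Atp5l2, names that the tables place at nearly the same stretch of chromosome 9 (44721333 to 44728825 and 44721356 to 44728755 in mm9). Atp5l codes for the g subunit of the ATP synthase. Atp5l had 20.8 to 37.6 CPM in set 2 and 1.30 to 9.24 CPM in set 1, and Atp5l2 had 0.351 to 0.622 CPM in set 2 and 1.53 to 12.03 CPM in set 1. The log2 differences between sets were 3.13 and -3.17. At 405 min the log2 fold change was 1.501 ± 0.85 (SE, adjusted p = 0.189) for Atp5l and -2.34 ± 0.85 (SE, adjusted p = 0.0580) for Atp5l2. Reads of overlapping genes may have been split between them, so both values are uncertain.

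At 405 min complex II had the smallest fold changes. Sdha, the flavoprotein that oxidises succinate, had 95.7, 111, 82.6, 96.4 and 113 CPM in control and 124, 108, 104 and 123 CPM at 405 min (log2 fold change 0.20 ± 0.13 SE, adjusted p = 0.261). The groups overlapped. The iron-sulfur subunit Sdhb had -0.11 ± 0.13 (SE, adjusted p = 0.548), and the membrane anchors Sdhc and Sdhd had 0.13 ± 0.16 (SE, adjusted p = 0.574) and 0.03 ± 0.13 (SE, adjusted p = 0.88). Their mean absolute log2 fold change at 405 min was 0.12, compared with 0.51 to 0.61 in the other complexes. With the library set in the model it was 0.06, compared with 0.15 to 0.26. At 135 min, without the set, the mean was 0.15 in complex II and 0.09 in complex III. Complex II holds only 4 genes, and these differences were not tested.

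Expressed as a level per complex, that is the mean log2 CPM over its tested genes, no complex moved far. Complex I stood at 6.15 ± 0.08 in the 5 controls (mean ± SD) and 6.05 ± 0.11 in the 4 samples of 405 min. The corresponding levels were 6.50 ± 0.09 and 6.58 ± 0.08 for complex II, 6.80 ± 0.19 and 6.94 ± 0.08 for complex III, 7.81 ± 0.19 and 7.81 ± 0.24 for complex IV, and 6.22 ± 0.18 and 6.23 ± 0.06 for complex V. Control and 405-min samples overlapped in all 5 complexes. Within set 1 the differences at 405 min ran from 0.01 (complex V) to 0.28 (complex IV), and within set 2 from -0.05 (complex II) to 0.16 (complex V). The members together took 1.112% to 1.289% of all counts in control and 1.071% to 1.318% at 405 min. The ranges by library set did not overlap, with 1.179% to 1.318% in set 1 and 1.071% to 1.153% in set 2.

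**Figure D4:**
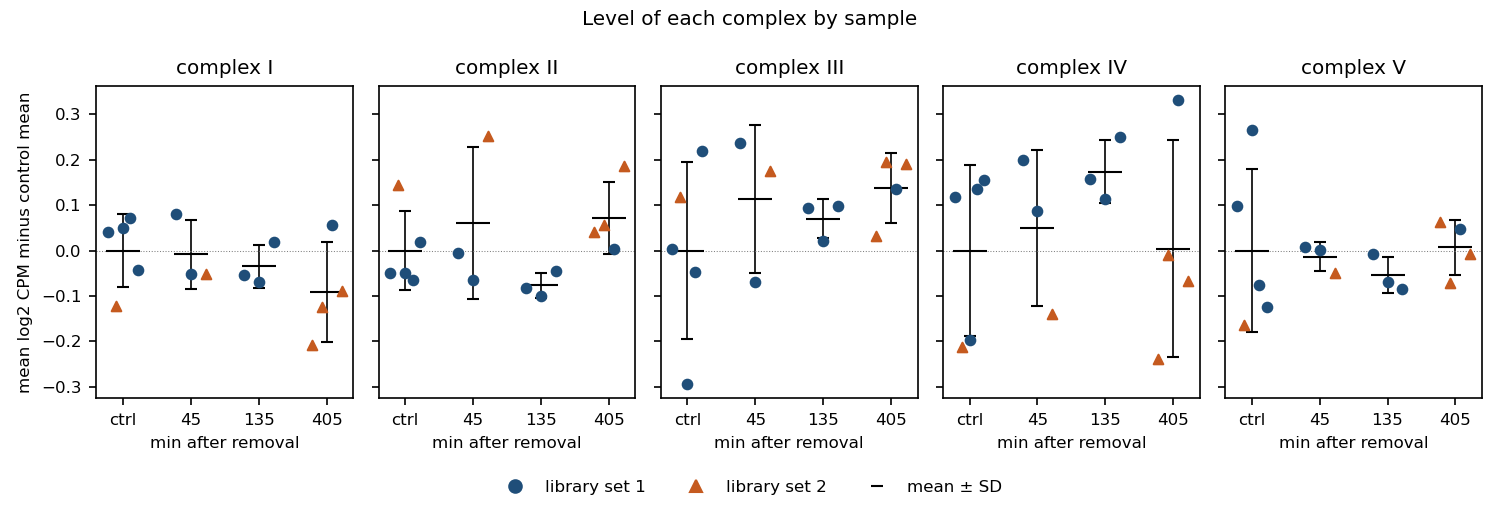
Mean log2 CPM over the tested genes of each complex, minus the control mean, for every sample by minutes after S1 withdrawal, with circles for library set 1, triangles for set 2 and bars for the group mean ± SD. The 405-min samples overlapped with control in every complex.

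Genes that serve these complexes were read from further lists. The 23 tested assembly factors had a median log2 fold change of -0.27 at 405 min, and of -0.06 with the library set in the model. Without the set 0 rose and 3 fell, when 9.99% of all genes rose and 13.4% fell. They were Cox17, the chaperone that brings copper to complex IV, with -1.62 ± 0.37 (SE, adjusted p = 0.00869), Cox16 with -1.35 ± 0.41 (SE, adjusted p = 0.0289) and the complex I assembly factor Ndufaf4 with -0.87 ± 0.23 (SE, adjusted p = 0.0191). Cox17 also passed with the library set in the model (-0.97 ± 0.25 SE, adjusted p = 0.0157), and the other two did not. Among 16 tested carriers and subunits with other names 0 rose and 3 fell, beside the same 9.99% and 13.4% of all genes. Cycs, cytochrome c itself, had 256 to 879 CPM in control and 190 to 363 CPM at 405 min. Its log2 fold change of -1.16 ± 0.30 (SE, adjusted p = 0.0156) became -0.61 ± 0.19 (SE, adjusted p = 0.0472) with the library set. Etfa, which feeds electrons from fatty acid oxidation, and Aifm1 had -0.70 ± 0.20 (SE, adjusted p = 0.0242) and -0.45 ± 0.14 (SE, adjusted p = 0.0332), and neither passed with the library set.

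Regulators of mitochondrial biogenesis gave 0 up and 5 down of 20 tested at 405 min (Esrrb, Tfam, Gabpa, Gabpb2 and Nrf1). Of all genes 9.99% rose and 13.4% fell in the same test. The median log2 fold change of the 20 was -0.44, and -0.225 with the library set in the model. Tfam, the factor that packages and transcribes mitochondrial DNA, changed by -0.84 ± 0.21 (SE, adjusted p = 0.0143), and with the library set in the model by -0.49 ± 0.16 (SE, adjusted p = 0.0604). Gabpa, the DNA-binding subunit of GABP, changed by -0.78 ± 0.26 (SE, adjusted p = 0.0453), and with the set by -0.33 ± 0.18 (SE, adjusted p = 0.252). Nrf1, which codes for the factor whose site was searched in the promoters and is named here after its values were seen, changed by -0.53 ± 0.17 (SE, adjusted p = 0.0340), and with the set by -0.55 ± 0.18 (SE, adjusted p = 0.0588). Esrrb had 0.1 to 17.6 CPM in control and 0.055 to 0.966 CPM at 405 min, and its adjusted p went from 0.0196 to 0.225 with the set. Gabpb2, the GABP partner named here after its values were seen, was the only one of the 5 that also passed with the library set (-0.68 ± 0.12 SE, adjusted p = 0.00137). Ppargc1a, the coactivator PGC-1alpha, also chosen after its values were seen, followed another course. It had 36.0 to 67.0 CPM in control, 39.8 to 59.1 CPM at 45 min, 21.8 CPM at its lowest and 22 CPM at its highest at 135 min and 41.5 to 67.8 CPM at 405 min. Its 135-min samples lay below all others. It fell at 135 min (-1.16 ± 0.23 SE, adjusted p = 0.0236) and was higher at 405 than at 135 min (1.34 ± 0.24 SE, adjusted p = 0.0102), and both calls were also made with the library set in the model.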

How the data were processed

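Poly(A) RNA of 15 samples (5 control, 3 at 45 min, 3 at 135 min, 4 at 405 min) had been aligned by the authors to mm9 and quantified against RefSeq on DNAnexus; the aligner version is not given in the sources used here. The values the authors deposited as read counts are expected counts, which were rounded. The deposited RPKM, per length and depth, served only to rank genes, and the deposited standard score and the ratio of RPKM to its root mean square were not used. Groups came from sample titles. Nothing states separate cultures, so p-values measure the spread between these samples.

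The 10276 genes without a zero count in any sample were fitted in edgeR 4.0.16 (R 4.3.3): TMM factors, a quasi-likelihood model of group over all samples, Benjamini-Hochberg over all tested genes, threshold 0.05. The standard error was derived from the F statistic. Printed CPM used the same TMM factors, and log2 CPM used a prior count of 2. The test was tried on simulated data. The design assumed whole counts; expected counts kept the same test. Exonic GC came from GENCODE vM1 on NCBIM37 (mm9), for 95.8% of genes. Library sets were split at the largest gap in GC slope (-0.675 to -0.387).

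Members, lists and tests were chosen with earlier results of these data known. Named genes were up to 6 called members in each direction, the extremes of each complex, fixed paralog groups, and up to 3 called genes in each direction of other lists; 1 gene of those lists is not reported here. Same-numbered replicates did not deviate together (mean r of -0.11 over 19 pairs), and numbers were not used as pairs in the main model. The library set was not removed in this check, so it cannot exclude a pairing. Alternatives were DESeq2 1.42.0, other scalings and filters, a GC offset, library set, replicate block and leaving out each sample. Depth of 6652539 to 30258404 counts limits low genes most, through counting error, and other limits on these genes were not tested.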

Additional observations from a re-analysis of the deposited data

Results flagged for a closer look

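Of 52 groups of 4 or 5 samples examined for the named genes, 6 held a sample far from the others. The limits used flag about 1 in 20 groups by chance if groups are independent and normally distributed. These groups share the same samples and mix the library sets, so 6 of 52 cannot be read against that rate. Each value below is the gap of that sample to its nearest neighbour as a share of the range of its group, with limits of 0.829 for 4 samples and 0.71 for 5.

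Control replicate 3, the shallowest library, stood high for Ndufc2 (449 CPM, next 158 CPM, share 0.733) and low for Cox8a (84.4 CPM, next 226 CPM, share 0.824). Control replicate 2, the only control of library set 2, stood high for Ndufv1 (102 CPM, next 28.5 CPM, share 0.877). The 405-min replicate 3, the only sample of set 1 at that time, stood high for Ndufc2 (109 CPM, next 56.6 CPM, share 0.892), Atp5l2 (3.67 CPM, next 0.622 CPM, share 0.944) and Cox6a1 (453 CPM, next 281 CPM, share 0.867). The cause was not tested.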

How the results depend on the processing

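Cox7a2l passed at 405 min in 21 of 22 alternatives (log2 fold change 0.71 to 1.18, adjusted p 2.99e-07 to 0.0794) and Ndufb4 in 20 of 22 (-1.41 to -0.34, adjusted p 0.000647 to 0.514). Ndufs1 passed in 11, Ndufa6 in 10, Ndufc2, Ndufb2 and Cox7b in 9 each, and Atp5o in 6. Over the named genes 422 values kept direction and side of the threshold, 79 lost the call, 13 gained one and 36 turned direction.

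At 405 min against control, 1 member rose with only the compared groups, where 3.41% of all genes rose. The replicate block also gave 1 (3.24% of all genes) and the library set 1 (6.17%). With both, 1 member and 588 of 10276 genes rose. Among genes kept by filterByExpr, 1 member and 934 of 12261 genes rose, and with no filter 1 member and 713 of 19601 genes. Falls numbered 1 with only the compared groups (4.53% of all genes fell), with the replicate block (4.54%) and with the library set (6.87%). With both, 1 member and 640 of 10276 genes fell. With the library set and control replicate 3 left out, an alternative chosen after seeing the data, 3 members and 11.4% of all genes fell. In set 1 alone and in set 2 alone a compared group held 1 sample, so their member counts are left out here. Leaving out 1 sample gave 1 to 17 members up and 1 to 22 down. Of all 10276 genes it gave 417 to 2517 up and 528 to 2461 down. Without control replicate 2 there were 17 up and 22 down (48.4% of all genes), without 405 min replicate 3 there were 6 and 21 (34.7%), and without control replicate 3 there were 2 and 2 (19.7%). The first 2 are the samples whose loss leaves control or 405 min in a single library set. At 135 min the library set gave 1 up and 2 down (7.93% of all genes). The set without control replicate 3 gave 1 and 3 (11.9% of all genes). The set with the replicate block also gave 1 and 3, with 235 genes up and 386 down of 10276. Set 1 alone gave 0 and 1 (5.68% of all genes). For 405 against 135 min, DESeq2 gave 2 up (14.6% of all genes) and the GC offset 1 up and 1 down (8.2%). Only the compared groups gave 11 and 5 (21.9% of members and 28.9% of all genes). Leaving out 1 sample gave 0 to 2 members up and 0 to 3 down. Of all 10276 genes it gave 19 to 581 up and 23 to 603 down. Set 2 alone gave no value for comparisons with 135 min, since it holds no such sample. Replicate numbers are shared across groups. Same-numbered samples did not deviate together (r from -0.706 to 0.437), in a check that did not remove the library set and so cannot exclude a pairing. The replicate block left 1 up and 1 down at 405 min.

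Total-count scaling moved the median of all genes at 405 min to 0.114. Directions turned at 405 min as follows. With total counts Sdhb was at 0.00854 and Atp5g3 at 0.0515. With the GC offset Cox4i1 was at -0.278 and Atp5g3 at 0.405. With the library set Atp5l was at -0.341, Cox6a1 at 0.0925, Cox7a2 at 0.0272, Sdhc at -0.0719 and Sdhd at -0.0431. With the set and the replicate block these were -0.503, 0.0378, 0.00813, -0.0471 and -0.0502. With the set and without control replicate 3, Atp5l was at -0.0254, Cox6a1 at 0.128, Cox7a2 at 0.0209, Ndufa4 at 0.147 and Sdhc at -0.0244. In set 1 alone Atp5l was at -0.826, Cox6a1 at 0.0200, Cox7a2 at 0.121 and Sdhc at -0.00339. In set 2 alone Ndufc2 was at 0.0686, Cox7b at 0.0358, Ndufv1 at -0.00503, Atp5l2 at 0.678, Cox6a1 at 0.206, Cox7a2 at 0.0234, Atp5g3 at 0.0889, Ndufa4 at 0.305, Sdhc at -0.125 and Sdhd at -0.0327. Leaving out 1 sample gave -0.196 to 0.000445 for Atp5g3 and -0.0212 to 0.0845 for Sdhd. For the level of a complex, the median over members in place of the mean gave -0.17 for complex II and 0.21 for complex V at 135 min, and for complex III -0.14 at 45 min and -0.31 at 405 min. The cause of these shifts was not tested.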

Other observations

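Enzymes that feed the respiratory chain changed in both directions at 405 min. Of 20 tested genes of the TCA cycle and pyruvate dehydrogenase, 2 rose and 4 fell, where 9.99% of all genes rose and 13.4% fell. The median log2 fold change of the 20 was -0.10, and -0.009 with the library set in the model. Pdhb, the E1 beta subunit of pyruvate dehydrogenase, had 33.4 to 38.3 CPM in control and 59.6 to 68.9 CPM at 405 min (0.85 ± 0.12 SE on the log2 scale, adjusted p = 0.000323). Pdhx, which anchors the E3 enzyme in the same complex, had 24.9 to 28.9 CPM in control and 49.2 to 54.3 CPM at 405 min (0.97 ± 0.13 SE, adjusted p = 0.000336). All 405-min samples of both genes lay above all controls. Pdk1, a kinase that inactivates the complex, had 18.9 to 28.6 CPM in control and 7.44 to 9.56 CPM at 405 min (-1.40 ± 0.21 SE, adjusted p = 0.000551), and here all 405-min samples lay below all controls.

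Pdha1, the E1 alpha subunit and partner of Pdhb, named after its values were seen, fell by 0.59 on the log2 scale (SE 0.12, adjusted p = 0.00457). Suclg2 and fumarase Fh1 also fell (-0.86 ± 0.21 SE, adjusted p = 0.0114, and -0.65 ± 0.20 SE, adjusted p = 0.0307). With the library set in the model Pdhb, Pdhx, Pdk1, Pdha1 and Suclg2 passed and Fh1 did not (adjusted p = 0.155).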
